A study of Mus musculus with 6 samples.

Results

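The cell cycle and proliferation genes are 35 genes of S phase and mitosis, together with the cyclins and CDK inhibitors that govern entry into the cycle, and they were taken by symbol from the 55426 genes of the deposited table. Each symbol matched 1 row. RNA-seq was performed on abdominal aortas of male C57BL/6J mice, with 3 libraries labelled control and 3 labelled *Prdm16* SMKO. *Prdm16* SMKO mice are *Prdm16* fl/fl mice carrying *Myh11*-CreERT2, a tamoxifen-inducible Cre recombinase that the smooth muscle *Myh11* promoter drives from a transgene on the Y chromosome, and the wild-type control mice carry *Myh11*-CreERT2 per the study's figure legend. The mice received tamoxifen in corn oil by gavage at 75 mg/kg/day for 5 days when they were 8 to 10 weeks old, and the aorta was taken 2 weeks later, without aneurysm induction. Recombination is thus limited to cells with *Myh11* promoter activity, whereas the RNA comes from the whole vessel wall. In such bulk tissue, fewer cells of a type and less RNA per cell cannot be told apart.

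A cell enters the cycle when D cyclins activate CDK4 and CDK6, which release E2F transcription factors, and E2F then raises cyclin E, the MCM helicase subunits and the enzymes of nucleotide synthesis. The kinases, kinesins and checkpoint proteins of mitosis come later. The DREAM complex represses their genes through CHR promoter elements in quiescence, and MuvB with B-MYB and FOXM1, together with NF-Y at CCAAT boxes, activates them as the cycle proceeds. Vascular smooth muscle cells (VSMCs) of a healthy adult artery are mostly quiescent and re-enter the cycle after injury, and CDK inhibitors such as p21 and p27 hold them out of it.

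Promoter sequences of the members carry elements of these programmes. RefSeq windows of 300 bases, 250 before to 50 after the transcription start, on GRCm38.p6 held 31 promoters of 28 members. *Ccnd1*, *Ccnd2*, *Ccne2*, *Ccna2*, *Mcm4*, *Aurkb* and *Tpx2* had no entry. Motifs were searched on both strands as TTTGAA or TTTAAA for the CHR (TTTAAA is its own reverse complement), CCAAT for the CCAAT box, and TTTCCCGC, TTTCGCGC, TTTGCCGC or TTTGGCGC for E2F. Of the 13 promoters of mitosis members, counted together with *Mki67*, *Top2a*, *Ccnb1*, *Ccnb2* and *Cdk1*, 12 (92.3%) held a CHR and 12 (92.3%) a CCAAT box, against 27.6% and 37.4% of all 32851 promoters. Of the 12 promoters of replication and nucleotide members, 10 (83.3%) held a CCAAT box, 5 (41.7%) an E2F motif and 4 (33.3%) a CHR, and an E2F motif stood in 2.26% of all promoters. A match describes these letters and is not a measured binding site. The 250 bases before the start are printed for *Cdk1* and *Mki67*, which carry the mitotic pattern, and for *Mcm6* and *Mcm5*, which carry the E2F pattern, with the motifs in capitals.
Cdk1, chr10:69352913-69353162, minus strand: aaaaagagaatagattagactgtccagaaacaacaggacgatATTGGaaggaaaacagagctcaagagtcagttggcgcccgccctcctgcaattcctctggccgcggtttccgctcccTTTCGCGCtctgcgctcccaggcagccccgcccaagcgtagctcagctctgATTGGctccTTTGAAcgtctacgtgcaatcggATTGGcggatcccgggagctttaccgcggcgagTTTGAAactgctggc
Mki67, chr7:135716380-135716629, minus strand: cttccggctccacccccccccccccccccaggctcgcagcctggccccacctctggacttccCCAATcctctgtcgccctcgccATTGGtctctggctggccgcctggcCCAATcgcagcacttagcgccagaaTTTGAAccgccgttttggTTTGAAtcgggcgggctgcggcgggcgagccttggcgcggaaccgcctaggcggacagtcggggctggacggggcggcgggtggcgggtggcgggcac
Mcm6, chr1:128359706-128359955, minus strand: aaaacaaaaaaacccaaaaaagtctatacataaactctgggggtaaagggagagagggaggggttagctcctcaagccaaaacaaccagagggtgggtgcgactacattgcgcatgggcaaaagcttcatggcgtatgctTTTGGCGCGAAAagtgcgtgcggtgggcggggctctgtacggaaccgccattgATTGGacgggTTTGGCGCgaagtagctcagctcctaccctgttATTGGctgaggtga
Mcm5, chr8:75109259-75109508, plus strand: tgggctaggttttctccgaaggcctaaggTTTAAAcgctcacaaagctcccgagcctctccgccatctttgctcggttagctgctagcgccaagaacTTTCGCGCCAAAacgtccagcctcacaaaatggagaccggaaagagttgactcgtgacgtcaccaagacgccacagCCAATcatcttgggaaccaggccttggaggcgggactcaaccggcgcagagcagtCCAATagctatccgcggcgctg
The *Cdk1* window begins its CHR elements 71 and 15 bases before the start, beside CCAAT boxes at 80 and 48 bases, and it also holds TTTCGCGC. In *Mki67* the CHR elements begin at 116 and 98 bases. *Mcm6* holds E2F motifs that begin at 110, 106 and 47 bases and *Mcm5* at 153 and 149 bases, and in each gene the neighbours that begin 4 bases apart overlap and read from opposite strands.

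Expression is given as TPM, transcript abundances corrected for length and scaled to a fixed total per library, which keep no record of read depth. The labels put the mean depth at 40 M read pairs, so the depth of a single library, and with it the counting error of a low value, is unknown. The 2 groups were compared by limma on log2(TPM + 0.5) over the 15775 genes that reached a mean of 0.5 TPM, with p-values adjusted over all of them by the Benjamini-Hochberg method. Fold changes on this scale understate the change of genes with low TPM. The labels number the libraries as replicates, and p-values measure the spread between these libraries. Over all genes tested, 56 were called at an adjusted p under 0.05, 29 higher and 27 lower in *Prdm16* SMKO (60 higher and 93 lower with median-of-ratios size factors, and 46 higher and 83 lower with quantile normalization). The targeted gene *Prdm16* ran from 30.8 to 36.8 TPM in control and from 14.8 to 27.7 TPM in *Prdm16* SMKO libraries, without overlap (adjusted p = 0.376), and no member lies within 15 Mb of it. Of the defining markers of VSMCs, *Acta2* was at 5256 TPM or more and *Myh11* at 1488 TPM or more in every library.

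Of the 35 members, 29 had a mean of at least 0.5 TPM and 6, *Ccnb1*, *Ccnb2*, *Cdc6*, *Bub1*, *Cenpe* and *Kif11*, did not. The levels of the members spanned a wide range in the aorta. The D cyclins, the CDK inhibitors, *Pcna* and *Mcm6* formed the upper end, and 7 members had a mean of 10 TPM or more. *Ccnd3* (mean of 6 libraries 74.0 TPM) and *Ccnd2* (71.6 TPM) led and did not differ beyond the spread of the libraries. *Cdkn1b* (33.6 TPM) came next, then *Pcna* (23.2 TPM), *Mcm6* (21.3 TPM) and *Cdkn1a* (20.4 TPM), whose library values overlapped one another, then *Ccnd1* (11.5 TPM). At the lower end, 14 members had a mean under 1 TPM, among them *Mki67* at 0.533 TPM and *Cdk1* at 0.678 TPM, and none of the 10 mitosis members had a mean above 1.298 TPM. Just inside the minimum stood *Ccne1* (0.515 TPM), *Mki67* and *Aurkb* (0.543 TPM), and just outside stood *Ccnb2* (0.427 TPM).

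**Figure D1:**
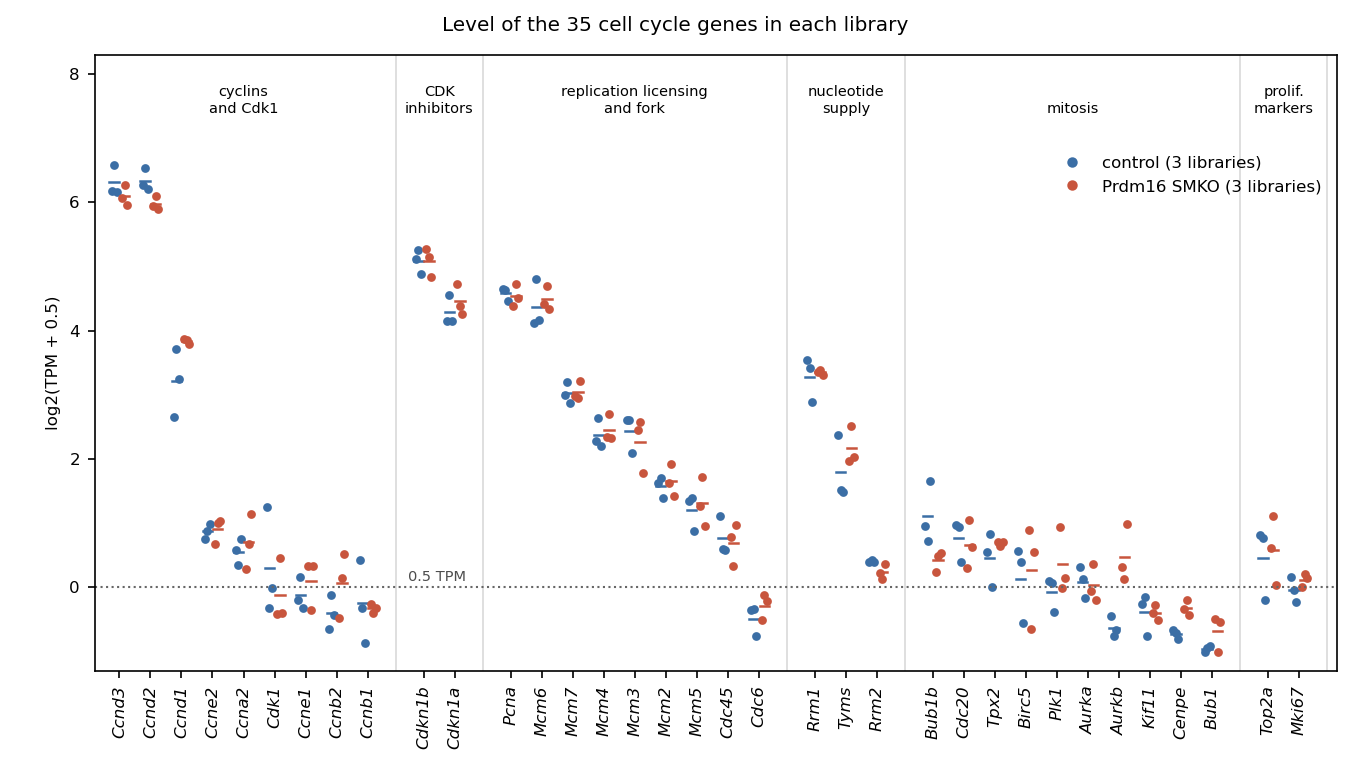
Level of each of the 35 members on the log2(TPM + 0.5) axis, with a point for each of the 3 control (blue) and 3 *Prdm16* SMKO (red) libraries, a short line at the group mean and a dotted line at 0.5 TPM. D cyclins, CDK inhibitors, *Pcna* and *Mcm6* sit above 10 TPM with the exception of single *Ccnd1* libraries, while the mitosis members lie near or below the dotted line.

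None of the 29 tested members was called, where 0.355% of all genes tested were, and the smallest adjusted p among them was 0.437, for *Aurkb*. At an unadjusted p under 0.05 there were 3 members (10.3%), *Ccnd1* and *Aurkb* higher and *Ccnd2* lower in *Prdm16* SMKO, against 8.74% of all genes tested. The groups did not overlap in 5 members (17.2%), those 3 with *Bub1b* and *Rrm2* lower in *Prdm16* SMKO, against 12.8% of all genes. The log2 fold change was above 0 in 18 of 29 members (62.1%), against 54.2% of all genes, and its median was 0.08 against 0.02. These shares lie near those of all genes tested. They cover only the members that passed the minimum, of which 5 did so with 1 group mean below 0.5 TPM, namely *Ccne1*, *Mki67*, *Plk1* and *Aurkb* in control and *Cdk1* in *Prdm16* SMKO. For 20 of the 29 members the 95% interval of the log2 fold change lay between −1 and 1, so that a 2-fold difference on this scale was outside it, and for the other 9 it was not.

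**Figure D2:**
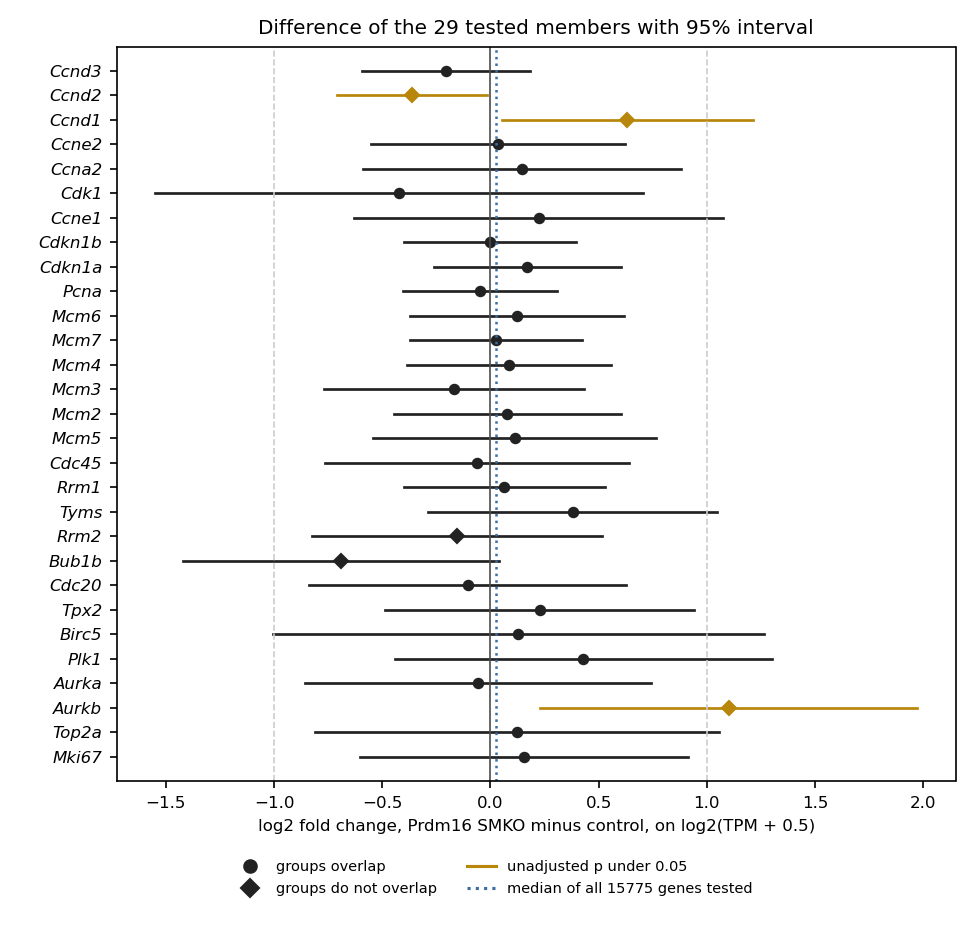
Log2 fold change (*Prdm16* SMKO minus control, on log2(TPM + 0.5)) of the 29 tested members, with 95% intervals from limma, diamonds where the 3 libraries of each group do not overlap and ochre where the unadjusted p is under 0.05. *Ccnd1*, *Ccnd2* and *Aurkb* have intervals that leave out 0, none of them called after adjustment, and the dotted line marks the median of all genes tested, 0.02.

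The D cyclins bind CDK4 and CDK6 and couple growth signals to the cycle. *Ccnd1* was higher and *Ccnd2* lower in every *Prdm16* SMKO library, and their shares of the summed D-cyclin level separated the groups while the sum did not. *Ccnd1* (ENSMUSG00000070348, chromosome 7 of GRCm38, from 144929931 to 144939925) was at 5.82 TPM in control replicate 1, 12.65 in replicate 2 and 9.01 in replicate 3, whereas the *Prdm16* SMKO replicates, in the same order, were at 14.17, 13.98 and 13.38 TPM. Every *Prdm16* SMKO library was above every control library, by a narrow margin over control replicate 2. The means were 9.16 ± 3.42 TPM (SD, n = 3) and 13.8 ± 0.412 TPM (SD, n = 3), which gives a log2 fold change of 0.63 (standard error 0.25, 95% interval 0.05 to 1.21, limma, unadjusted p = 0.0353, adjusted p = 0.517). Without control replicate 1, the lowest library, the log2 fold change was 0.36. Of the 4709 exonic bases of *Ccnd1*, 1100 (23.4%) are shared with exons of *LTO1* on the opposite strand, and the counting is not stated to use strand, so that reads of these bases cannot be assigned to either gene with certainty. *LTO1* was at 17.12, 23.71 and 10.01 TPM in control and at 20.14, 17.65 and 19.15 TPM in *Prdm16* SMKO libraries, which overlap.

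*Ccnd2* (ENSMUSG00000000184, chromosome 6, from 127125162 to 127152193) lay on the other side. It was at 76.3, 92.5 and 73.4 TPM in control and at 60.8, 67.8 and 58.8 TPM in *Prdm16* SMKO libraries, and the groups did not overlap. The means were 80.7 ± 10.3 TPM and 62.4 ± 4.71 TPM (SD, n = 3 each), and the log2 fold change was −0.36 (standard error 0.15, 95% interval −0.71 to −0.02, limma, unadjusted p = 0.0414, adjusted p = 0.543). The study names *Ccnd2* among the genes lower in *Prdm16* SMKO at an adjusted p under 0.05, from these same libraries and by a test it does not specify. Here *Ccnd2* was not called, and because the libraries are the same its direction is not independent evidence. The study called many more genes in all at that threshold than the 56 called here, so the contrast is not particular to *Ccnd2*. *Ccnd3* was at 72.1, 95.4 and 71.0 TPM in control and at 66.6, 76.9 and 61.8 TPM in *Prdm16* SMKO libraries, which overlap (log2 fold change −0.21, 95% interval −0.60 to 0.18, adjusted p = 0.863).

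Shares within a library do not depend on how libraries are scaled. *Ccnd1* made up 3.77%, 6.31% and 5.87% of the summed D-cyclin TPM in the control libraries and 10.01%, 8.81% and 9.99% in the *Prdm16* SMKO libraries. The share was higher in all 3 *Prdm16* SMKO libraries, with means of 5.32 ± 1.35% and 9.60 ± 0.686% (SD, n = 3 each) and a difference of 4.28 percentage points (exact permutation test, two-sided p = 0.1, the smallest that 3 libraries against 3 allow, and 0.267 after Benjamini-Hochberg adjustment over the 8 quantities computed within libraries). The *Ccnd2* share was lower in all 3, at 47.8 ± 1.67% and 43.2 ± 0.618%, also at the smallest exact p of 0.1, whereas the *Ccnd3* share was 46.9 ± 0.657% and 47.2 ± 1.19% (exact permutation test, p = 0.7). These 3 shares make up the whole of a library's D-cyclin TPM, so the lower *Ccnd2* share is not separate from the higher *Ccnd1* share. The 8 quantities are thus not independent of one another. When single libraries were left out, the difference in the *Ccnd1* share stayed between 3.51 and 4.78 percentage points. The summed D-cyclin level was 169 ± 27.01 TPM in control and 145 ± 12.7 TPM in *Prdm16* SMKO (exact permutation test, p = 0.3). The shares were chosen after the values of the genes were known.

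**Figure D3:**
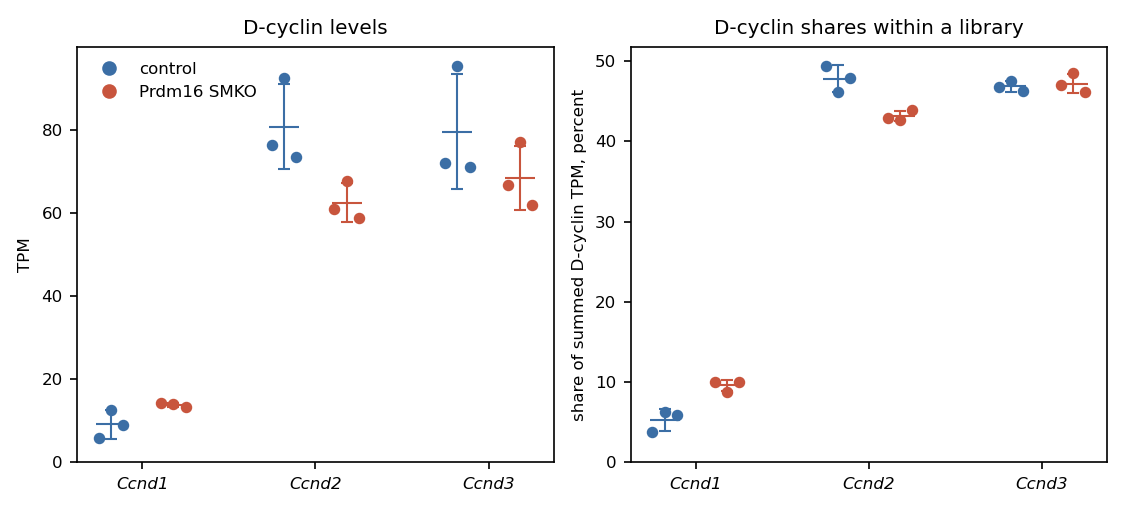
D cyclins in the 3 control (blue) and 3 *Prdm16* SMKO (red) libraries, as TPM on the left and as percent of the summed D-cyclin TPM of the same library on the right, with means and SD bars. The *Ccnd1* share is 3.77% to 6.31% in control and 8.81% to 10.01% in *Prdm16* SMKO libraries.

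The remaining cyclins and *Cdk1* act after the D cyclins. *Ccne1* and *Ccne2*, which activate CDK2 for S-phase entry, had log2 fold changes of 0.22 and 0.04, and *Ccna2*, the cyclin of S phase and G2, had 0.15. Each of them had overlapping groups, with 95% intervals from −0.63 to 1.08, −0.55 to 0.62 and −0.59 to 0.88. *Cdk1*, the kinase of mitotic entry, was at 1.89, 0.30 and 0.49 TPM in control and at 0.25, 0.88 and 0.26 TPM in *Prdm16* SMKO libraries. The groups overlap, and control replicate 1 alone stands above the rest. Its 95% interval, −1.55 to 0.71, was wide, and without control replicate 1 its mean fell under the minimum. *Ccnb1* and *Ccnb2*, its mitotic cyclins, had means of 0.350 and 0.427 TPM and were not tested. The pseudogene *Ccnb2-ps* was listed at a mean of 2.12 TPM, above *Ccnb2* itself, and reads shared between such copies could be split by the counting. *Ccne2* and *Ccna2* share 17.4% and 12.5% of their exonic bases with the oppositely oriented genes *Ints8* (12.8 TPM) and *Exosc9* (14.3 TPM). Among later members, *Cdc45* (1.185 TPM) shares 5.96% with *Ufd1* (36.1 TPM) and *Cdc20* (1.175 TPM) 2.84% with *Elovl1* (38.3 TPM). Reads of these bases likewise cannot be assigned to either gene with certainty.

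The CDK inhibitors were among the most abundant members. *Cdkn1a*, which encodes p21, the p53-responsive inhibitor, was at 17.3, 23.1 and 17.2 TPM in control and at 25.9, 20.3 and 18.7 TPM in *Prdm16* SMKO libraries. The groups overlap and *Prdm16* SMKO replicate 1 is the highest (log2 fold change 0.17, 95% interval −0.26 to 0.60, adjusted p = 0.919). *Cdkn1b*, which encodes p27, was at 34.26, 37.68 and 28.98 TPM in control and at 38.04, 34.77 and 28.14 TPM in *Prdm16* SMKO libraries, with means of 33.6 and 33.7 TPM and a 95% interval from −0.40 to 0.39.

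The replication members build and load the helicase and the clamp of the replication fork. All 8 that were tested, *Mcm2* to *Mcm7*, *Pcna* and *Cdc45*, had log2 fold changes between −0.17 and 0.12 and overlapping groups. On the log2 scale of the test, their 95% intervals lay inside a 2-fold difference. That of *Cdc45*, with a control mean of 1.22 TPM, ran from −0.76 to 0.64. This scale understates changes at such low TPM, so a 2-fold fall in the TPM of *Cdc45* itself is not left out. *Pcna*, the sliding clamp of DNA polymerases, was at 24.7, 24.3 and 21.6 TPM in control and at 20.4, 25.9 and 22.3 TPM in *Prdm16* SMKO libraries (log2 fold change −0.05, 95% interval −0.40 to 0.31). The libraries of both groups lie in the same range. The 6 MCM subunits form a hexamer, yet their transcripts were unequal. *Mcm6* stood 4.71 ± 0.852-fold above the mean of the other 5 in control and 4.99 ± 0.147-fold above it in *Prdm16* SMKO (SD, n = 3 each, exact permutation test, p = 0.7). The summed MCM level was 42.3 ± 8.90 and 44.0 ± 5.55 TPM (p = 0.7 by the same exact test). *Cdc6*, which loads the helicase at origins, had a mean of 0.273 TPM and was not tested.

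Among the enzymes of nucleotide supply, the ribonucleotide reductase subunits *Rrm1* and *Rrm2* stood far apart. *Rrm1*, the large subunit, was at 11.2, 10.2 and 6.87 TPM in control and at 9.71, 9.93 and 9.41 TPM in *Prdm16* SMKO libraries, which overlap. *Rrm2* (ENSMUSG00000020649, chromosome 12, from 24708241 to 24714146), the subunit made in S phase, was at 0.81, 0.84 and 0.81 TPM in control and at 0.67, 0.60 and 0.79 TPM in *Prdm16* SMKO libraries. Its groups did not overlap, but the gap was 0.02 TPM, and the log2 fold change of −0.16 had a 95% interval from −0.83 to 0.51 (adjusted p = 0.960). *Rrm1* exceeded *Rrm2* by 11.5 ± 2.73-fold in control and 14.3 ± 2.32-fold in *Prdm16* SMKO (SD, n = 3 each, exact permutation test, p = 0.3). *Tyms*, thymidylate synthase, had means of 3.12 and 4.08 TPM and overlapping groups (log2 fold change 0.38, 95% interval −0.29 to 1.05).

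The mitosis members held the largest log2 fold change of the 29 tested members in either direction, that of *Aurkb* above 0 and that of *Bub1b* below 0, both at levels under 3 TPM in every library. *Aurkb* (ENSMUSG00000020897, chromosome 11, from 69045647 to 69051664), the kinase of the chromosomal passenger complex, was at 0.23, 0.09 and 0.13 TPM in control and at 0.74, 0.59 and 1.48 TPM in *Prdm16* SMKO libraries. All 3 *Prdm16* SMKO libraries were above all control libraries, with means of 0.150 ± 0.0721 and 0.937 ± 0.476 TPM (SD, n = 3 each). The log2 fold change was 1.10 (standard error 0.38, 95% interval 0.23 to 1.97, limma, unadjusted p = 0.0192, adjusted p = 0.437). *Aurkb* reached the minimum only through the *Prdm16* SMKO group, fell below it without *Prdm16* SMKO replicate 3, and its log2 fold change ran from 0.73 with a pseudocount of 1 to 1.996 with a pseudocount of 0.1. *Birc5*, which encodes the complex's subunit survivin, was at 0.98, 0.82 and 0.18 TPM in control and at 1.36, 0.14 and 0.96 TPM in *Prdm16* SMKO libraries. It spanned nearly the same range in both groups. The other subunits, named after their values were seen, were *Cdca8*, with means of 0.277 and 0.770 TPM (log2 fold change 0.69, unadjusted p = 0.0868, groups not overlapping), and *Incenp*, with means of 3.87 and 3.73 TPM (log2 fold change 0.09). *Cdca8*, like *Aurkb*, reached the minimum only through the *Prdm16* SMKO group, and 12.8% of all genes tested lacked overlap.

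*Bub1b* (ENSMUSG00000040084, chromosome 2, from 118598211 to 118641591), which encodes the spindle checkpoint kinase BubR1, was lower. It was at 1.45, 1.15 and 2.65 TPM in control and at 0.68, 0.91 and 0.95 TPM in *Prdm16* SMKO libraries, without overlap. The log2 fold change was −0.69 (standard error 0.32, 95% interval −1.42 to 0.04, limma, unadjusted p = 0.0612, adjusted p = 0.618), and without control replicate 3, the highest library, it was −0.42. *Cenpe*, a kinetochore motor, was below the minimum and did not overlap either, at 0.13, 0.11 and 0.07 TPM in control and 0.29, 0.37 and 0.24 TPM in *Prdm16* SMKO libraries. *Bub1*, the partner kinase of the checkpoint, was listed at 0 in control replicate 1 and *Prdm16* SMKO replicate 2 and at 0.21 TPM or less elsewhere, and *Kif11*, the spindle motor Eg5, had a mean of 0.270 TPM. *Plk1* and *Aurka*, kinases of mitotic entry and of the spindle poles, had log2 fold changes of 0.43 and −0.06, *Cdc20*, the activator of the anaphase-promoting complex, −0.11, and *Tpx2*, the activator of Aurora A, 0.23, all with overlapping groups. Estimates within this programme lay on both sides of 0, and the summed level of the 10 mitosis members was 5.13 to 6.86 TPM in control and 6.25 to 7.28 TPM in *Prdm16* SMKO libraries.

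*Mki67*, which encodes the proliferation marker Ki-67, was at 0.62, 0.47 and 0.35 TPM in control and at 0.50, 0.65 and 0.61 TPM in *Prdm16* SMKO libraries. *Top2a*, the topoisomerase of dividing cells, was at 1.26, 1.21 and 0.37 TPM in control and at 1.03, 1.65 and 0.53 TPM in *Prdm16* SMKO libraries. The groups overlap in both genes. Their log2 fold changes, 0.16 and 0.12, had 95% intervals from −0.60 to 0.91 and from −0.81 to 1.06. On log2(TPM + 0.5), the interval of *Mki67* left out a 2-fold difference and that of *Top2a* did not. This scale understates changes at such low TPM, so a 2-fold difference in the TPM of *Mki67* itself is not left out.

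On TPM as deposited, control replicate 3 was the lowest library in 11 of the 29 tested members and the highest in 1, and *Prdm16* SMKO replicate 2 was the highest in 9. After scaling by size factors, which ran from 0.864 in control replicate 3 to 1.13 in control replicate 2, control replicate 3 was the lowest in 6 and the highest in 5, *Prdm16* SMKO replicate 1 was the lowest in 7, and control replicate 3 no longer stood apart. Mitochondrial transcripts took 15.8% to 27.4% and the genes of the 45S ribosomal RNA locus 15.6% to 31.4% of a library's TPM, the latter most in control replicate 3, and their part in these levels was not tested. Without control replicate 3 the median log2 fold change of the members was −0.05 and 10 of 29 were above 0, while the median of all genes tested was −0.07.

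**Figure D4:**
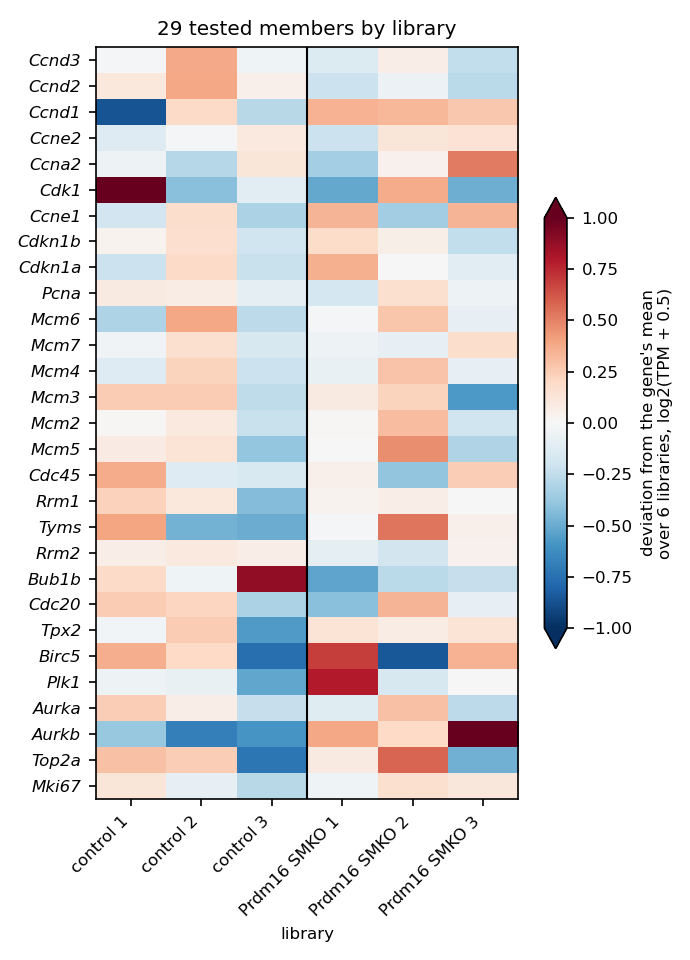
Deviation of each of the 29 tested members from its own mean over the 6 libraries, in log2(TPM + 0.5), with colours that saturate at −1 and 1. Control replicate 3 is blue in most rows, and the rows that separate the groups are those of *Ccnd1*, *Ccnd2*, *Rrm2*, *Bub1b* and *Aurkb*.

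A further 142 cell cycle genes in 4 lists, of which 110 passed the minimum, were described beside the members. None was called, against 0.355% of all genes tested. An unadjusted p under 0.05 was found in 12 (10.9%), 6 in each direction, near the 8.74% of all genes. The groups did not overlap in 25 (22.7%), against 12.8% of all genes. Of these genes, 7 of the 12 and 8 of the 25 stand in the list of p53 targets and growth arrest genes, written with earlier results known. The median log2 fold change was 0.08, and 70 of 110 (63.6%) were above 0, against 54.2% of all genes. In the list for G1 and S control, 23 of 33 genes (69.7%) were above 0 and the 2 with an unadjusted p under 0.05 were higher. *Cdk6*, a partner kinase of the D cyclins, was at 7.32 ± 1.09 TPM in control and 10.5 ± 0.274 TPM in *Prdm16* SMKO (log2 fold change 0.50, adjusted p = 0.424), and *Wee1*, which holds CDK1 inactive, at 4.02 ± 0.562 and 6.34 ± 1.301 TPM (0.59, adjusted p = 0.453). Both lacked overlap. The other partner kinase, *Cdk4*, was at 49.1 ± 8.75 and 50.6 ± 5.03 TPM with overlapping groups. In the DNA replication list, 18 of 34 genes were above 0 and none had an unadjusted p under 0.05. On log2(TPM + 0.5), 32 of them had intervals inside a 2-fold difference.

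In the mitosis list, 17 of 24 tested genes (70.8%) were above 0, against 54.2% of all genes, and the median was 0.24 against 0.02. The list held 46 genes, so these values cover only those that passed the minimum. *Cdca8* and *Espl1* passed it with control means of 0.277 and 0.413 TPM, only through the *Prdm16* SMKO group. *Ncapd2*, a condensin subunit, was higher (2.93 ± 1.26 and 4.69 ± 0.382 TPM, log2 fold change 0.66, adjusted p = 0.537). *Anln*, the actin-binding cytokinesis protein anillin, was at 16.7, 21.4 and 14.3 TPM in control and at 10.5, 10.3 and 9.08 TPM in *Prdm16* SMKO libraries, without overlap. Its log2 fold change was −0.77 with a standard error of 0.19 (limma, adjusted p = 0.191), and it was called with size factors (adjusted p = 0.0251), with quantile normalization (0.0254), without mitochondrial and 45S genes (0.0429) and with array weights (0.0257). Under the other 13 alternatives it was not called, with an adjusted p of up to 0.487. *Pttg1*, which encodes securin, was at 50.2 ± 15.9 and 29.9 ± 4.33 TPM, with overlapping groups (log2 fold change −0.69, adjusted p = 0.456).

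Of the 19 p53 targets and growth arrest genes, 7 (36.8%) had an unadjusted p under 0.05, 3 higher and 4 lower, against 8.74% of all genes. *Plk3*, a stress-responsive polo-like kinase, was at 4.45, 5.62 and 6.48 TPM in control and at 2.09, 2.81 and 1.93 TPM in *Prdm16* SMKO libraries (log2 fold change −1.11, adjusted p = 0.0982). *Btg2*, an antiproliferative gene, was at 65.1 ± 12.4 and 33.5 ± 8.19 TPM (−0.96, adjusted p = 0.160). *Plk2* was at 3.10 ± 0.480 and 5.42 ± 0.570 TPM (0.72, adjusted p = 0.266), and *Eda2r*, a p53-induced receptor, at 1.28 ± 0.358 and 2.60 ± 0.410 TPM (0.81, adjusted p = 0.369). All 4 lacked overlap, and *Trp53* itself was at 20.7 ± 1.86 and 21.2 ± 1.05 TPM. The median log2 fold change of the list was 0.04, with 12 of the 19 genes above 0 and 7 below. Others of the list, *Mdm2*, *Bax* and *Sesn1*, were near 0 (0.05, 0.01 and 0.007), with overlapping groups. The list was written with earlier results of these data known. The study also names *Btg2* and *Plk3* among its lower and *Phlda3* among its higher genes at an adjusted p under 0.05 in these libraries, whereas none of them was called here. The count of 7 is thus no independent evidence. At that threshold the study called many more genes in all than the 56 called here, so the contrast is not particular to these genes.

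**Figure D5:**
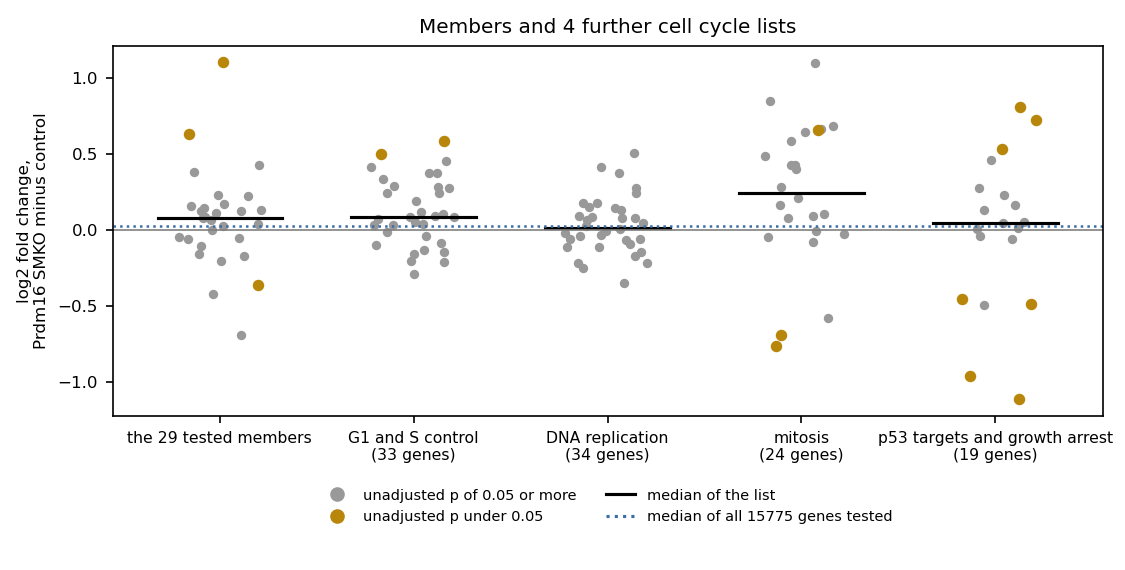
Log2 fold change (*Prdm16* SMKO minus control) of the 29 tested members and of the tested genes of 4 further lists, 1 point per gene with sideways jitter, ochre where the unadjusted p is under 0.05, with a black line at the list's median. The medians are 0.08 for the members, 0.09 for G1 and S control, 0.01 for DNA replication, 0.24 for mitosis and 0.04 for p53 targets, beside 0.02 for all genes tested.

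Markers of other cells were read beside these genes, and none of them was called. Of all genes tested, 54.2% were above 0 in log2 fold change and 8.74% had an unadjusted p under 0.05. All 7 macrophage markers were above 0, 5 of them at such a p, and their summed level was 70.2 to 110 TPM in control and 110 to 201 TPM in *Prdm16* SMKO libraries. Of the 6 endothelial markers 5 were above 0, with *Vwf* higher at such a p. Of the 7 fibroblast markers 5 were above 0, while *Col1a1* was lower at such a p. The 7 T-cell markers summed to 0.42 to 3.17 and 3.03 to 4.92 TPM and the 6 B-cell and plasma-cell markers to 0.40 to 3.09 and 3.45 to 6.00 TPM. The 5 neutrophil markers, of which *Ly6g* was at 0 in every library, summed to 0.63 to 1.32 TPM in control and 1.56 to 7.33 TPM in *Prdm16* SMKO libraries. Of the 15 immediate-early genes, which respond to stimulation and to tissue handling, 14 were below 0 and 6 were called, against 0.355% of all genes called. The sum of the 15 was 768 to 1105 TPM in control and 315 to 555 TPM in *Prdm16* SMKO libraries. Single libraries stood apart as well. Erythroid markers summed to 19568 TPM in *Prdm16* SMKO replicate 2 against 4947 TPM or less elsewhere, adipocyte markers to 2346 TPM in *Prdm16* SMKO replicate 3 against 951 TPM or less elsewhere, and striated muscle markers to 63.4 TPM in *Prdm16* SMKO replicate 1 against 11.03 TPM or less elsewhere. Of the 8 VSMC markers, 6 were below 0, with a median log2 fold change of −0.39 and *Cnn1* and *Smtn* at an unadjusted p under 0.05, while *Des* was above 0 at such a p. The part of these cells and libraries and of the immediate-early response in the values of the members was not tested.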

How the data were processed

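RNA-seq was performed by the authors on abdominal aortas of 3 control and 3 *Prdm16* SMKO mice with polyA selection and 151 bp paired-end reads. The authors deposited TPM values for 55426 genes, rounded to 2 decimals. Per the labels, processing used bcl2fastq, cutadapt 2.3, FastQC 0.11.8, STAR 2.7.8a, RSEM 1.3.3, MultiQC 1.7 and GRCm38. The annotation and the strand setting of the counting are not given in the sources used here. Groups came from the genotype labels, and libraries were joined to the table by the names in their descriptions. No pair of libraries held identical values.

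The 15775 genes that reached a mean of 0.5 TPM were compared on log2(TPM + 0.5) with limma 3.58.1 in R 4.3.3, with a variance trend, equal weights and two-sided Benjamini-Hochberg adjusted p-values. The fit was also run on values simulated with independent normal noise, as a check that it recovers a log2 change of 2. That check does not measure power at the smaller changes of the members. Ratios were compared by exact permutation tests. Positions are those of GENCODE M21 on GRCm38 and promoters those of RefSeq. Python 3.11.15, numpy 2.4.6, pandas 2.3.3 and matplotlib 3.10.9 were used. The members and lists were chosen with earlier results of these data known. All members are named, and library values are given for those at an unadjusted p under 0.05 or without overlap, the highest of each role, *Mki67*, *Top2a*, *Cdk1*, *Cdkn1a* and *Pcna*, with others added after their values were seen. Of the further lists, up to 2 genes per direction with the largest change at an unadjusted p under 0.05 are named. The 17 alternatives were pseudocounts of 0.1 and 1, no minimum, a minimum of 2 TPM, size factors, quantile normalization, TPM rescaled without mitochondrial and 45S genes, variances without a trend or robust, array weights, a replicate block and each library left out. Leaving libraries out of the *Ccnd1* share was added after seeing the data.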

Additional observations from a re-analysis of the deposited data

How the results depend on the processing

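No member was called under 16 of the 17 alternatives. With array weights, which weighted control replicate 1 at 10.1 and the other libraries at 0.414 to 0.954, 1 member was called, *Ccnd1* (log2 fold change 1.12, limma adjusted p = 0.0408, up to 0.957 under other alternatives), 5 members had an unadjusted p under 0.05, 6 further cell cycle genes were called (*Anln*, *Pttg1*, *Eda2r*, *Plk2*, *Plk3* and *Btg2*), and 494 genes were called in all. The number called in all was 153 with size factors, 129 with quantile normalization, 123 without mitochondrial and 45S genes, 112 with robust variances, 33 with no variance trend and 10 with no expression minimum, against 56, and *Anln* was the 1 further cell cycle gene called with each of the former 3. The cause of these shifts was not tested. With a minimum of 2 TPM, which leaves 13 members, 1 had an unadjusted p under 0.05, *Ccnd1*.

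With each library left out, 5 to 61 genes were called (17, 5 and 17 without control replicates 1, 2 and 3, and 28 without *Prdm16* SMKO replicate 2). Members at an unadjusted p under 0.05 numbered 0 to 2, with 1, 1 and 0 without *Prdm16* SMKO replicates 1, 2 and 3, and the members' median ran from −0.053 to 0.12. *Ccnd1* kept that p only without control replicate 2, *Ccnd2* only without control replicate 3.

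Directions near 0 turned. With array weights the log2 fold changes were −0.11 for *Top2a*, −0.16 for *Rrm1* and −0.019 for *Mki67*. That of *Cdkn1b* was 0.0061 with quantile normalization, 0.013 without mitochondrial and 45S genes, and above 0 without control replicates 1 or 2 or *Prdm16* SMKO replicate 3. With each library left out it ran from −0.10 to 0.12 for *Cdkn1b*, from −0.21 (without control replicate 3) to 0.40 for *Top2a*, from −0.14 (without control replicate 3) to 0.20 for *Rrm1* and from −0.14 to 0.031 (without *Prdm16* SMKO replicate 1) for *Pcna*. *Ccnd1*, *Ccnd2*, *Bub1b*, *Rrm2* and *Cdkn1a* kept their direction wherever they were tested, as did *Aurkb* and *Cdk1*.

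With the replicate block, 4 genes were called in all, none of the members or further cell cycle genes, and the same 3 members had an unadjusted p under 0.05. The numbers do not pair the libraries. Deviations of same-numbered libraries correlated at −0.13, −0.11 and 0.019, and 0 of 6 libraries correlated best with their own number. The depth of each library is unknown, so how small a difference could be resolved in genes near 0.5 TPM is unknown too.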
